A study of Mus musculus with 18 samples.

Results

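Interferon regulatory factor 5 (IRF5) was tested here as a requirement for the transcriptional response of macrophages to lipopolysaccharide (LPS). For each gene the change under LPS in wild-type (WT) bone marrow-derived macrophages (BMDMs) was compared with the change in BMDMs from IRF5 knockout (KO) mice, and the difference of the 2 log2 changes is called the interaction. An interaction above 0 means that the WT response was above the KO response, and one below 0 that it lay under it. The comparison used 12 of the 18 RNA-seq libraries of the series, 3 in each of 4 groups: WT unstimulated, WT LPS, KO unstimulated and KO LPS. The remaining 6 libraries, 3 per genotype, received defactinib at 3.5 uM, an inhibitor of the kinases FAK and PYK2, before LPS. Cells of both genotypes had been grown from bone marrow with GM-CSF over 8 days. They were given DMSO vehicle for 1 h and then 100 ng/ml LPS for 2 h. The unstimulated libraries carry DMSO in their labels and an untreated mark in the column names, so that vehicle without LPS and no addition cannot be told apart. The methods list purchased C57BL/6J males of 8 to 11 weeks and bone marrow from wild-type mice, without saying that the former were the donors. They give neither the allele, strain nor age of the KO mice, nor whether the 3 libraries of a group came from separate animals. The study calls its replicates biological in general, as mice or as cells, without saying which these libraries were. The p-values therefore measure the spread between libraries, which may be technical.

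LPS is sensed by Toll-like receptor 4, which signals through the adaptors MyD88 and TRIF. The kinases below them release NF-kB and the MAP kinases, and they activate interferon regulatory factors, among them IRF3 and IRF5, which then enter the nucleus. IRF5 is known in macrophages for its part in the expression of inflammatory cytokines such as IL-6, IL-12, IL-23 and TNF. Interferon-beta made early in the response acts back on the cells and switches on antiviral genes. Macrophages grown with GM-CSF are known for a high content of IRF5.

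The targeted gene was examined first. Irf5 (ENSMUSG00000029771, chr6:29526625-29541871 of mm10) was counted at 587, 606 and 650.1 CPM (counts scaled to the library's total after TMM adjustment) in the unstimulated WT libraries and at 434, 474 and 443 CPM after LPS. In the KO libraries it was counted at 335, 396 and 364 CPM unstimulated and at 435, 431 and 344 CPM after LPS. The unstimulated groups did not overlap, whereas after LPS the highest KO library stood above the lowest WT library. Counts were summed over the whole gene and the deleted part is not given in the labels, so this level does not check the KO labels. The interaction of Irf5 itself was -0.59 (standard error 0.23, adjusted p = 0.0897 from edgeR) and was not called.

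The 3 libraries labelled KO LPS were not alike. Replicates 1 and 2 differed from each other by a chi-square of 2.33 per gene, where sampling noise alone gives 1, while replicate 3 differed from them by 440.9 and 425.5. Pairs within the other groups ranged from 3.82 to 183. Replicate 3 was more than 2-fold from the mean of the KO unstimulated libraries in 1202 genes and from that of the KO LPS defactinib libraries in 3943 genes. For replicates 1 and 2 the order was the opposite, with 4537 and 4558 genes against the unstimulated and 1007 and 1066 genes against the defactinib libraries. A list of 11 nuclear noncoding RNA genes took 4.72% and 4.75% of counts in replicates 1 and 2 and 0.533% in replicate 3, against 0.437% to 0.511% in WT LPS libraries and 2.36% to 6.07% in the 6 defactinib libraries. WT unstimulated replicate 3 stood at 1.54%, against 0.242% and 0.283% in WT unstimulated replicates 1 and 2. One defactinib library also enters through the shared estimate of spread: in WT LPS defactinib replicate 3 the interferon factor Irf7 was at 885 CPM, against 16.7 and 10.7 CPM in the other 2 of its group. Counts on genes ranged from 39282181 to 55262814 in the 12 libraries compared. Among cell markers, the summed level of 11 neutrophil markers was at most 419 CPM in the WT and 1090 to 1717 CPM in the KO libraries compared, most of it Mmp8, while Mpo reached 0.407 CPM and Elane 0.318 CPM at most. Markers of T, B and NK cells summed to at most 3.08 CPM in these libraries and those of mast cells and basophils to 68.5 to 129.7 CPM, the highest in KO LPS replicate 3. Of the latter, Il1rl1 reached 72.9, Gata2 51.5, Hdc 42.5 and Kit 20.8 CPM, and the next, Cpa3, 1.07 CPM. Macrophage markers summed to 11220 to 16560 CPM, with Lyz2 at 7703 to 12150 CPM, and dendritic cell markers to 12620 to 26310 CPM. In the dendritic sum Cd74, H2-Aa, H2-Ab1 and Itgax were each at 1618 CPM or more. The next, Ccr7, reached 368 CPM, while Flt3 reached 2.63, Xcr1 0.371 and Siglech 0.0623 CPM at most. The part of these differences in the results was not tested, and Il12b and Cxcl10 stood above the unstimulated KO libraries in each KO LPS library. Whether labels or treatments were exchanged between LPS libraries with and without defactinib was not tested. Replicates are named as labelled, an exchange of labels or treatments would change what each interaction compares, and interactions are therefore given with each KO LPS library alone.

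**Figure D1:**
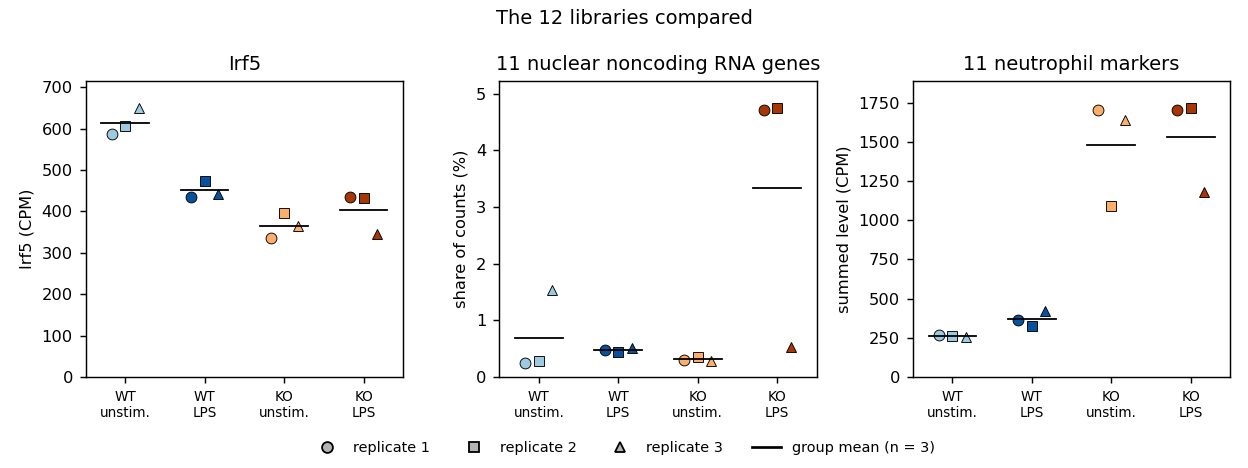
Irf5 level (CPM), share of counts on 11 nuclear noncoding RNA genes (%) and summed level of 11 neutrophil markers (CPM) in the 12 libraries compared, by group, with 1 point per library and the group mean as a line. KO LPS replicates 1 and 2 lie at 4.72% and 4.75% for the noncoding RNAs and replicate 3 at 0.533%, and the neutrophil markers are above 1000 CPM in each KO library.

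With the 3 KO LPS libraries together, the interaction was called for 992 genes above 0 (6.33% of 15663 tested) and for 547 below 0 (3.49%), at a false discovery rate below 0.05 from edgeR and a log2 difference beyond 1. Scaling by library size alone in place of TMM gave 653 above and 807 below, so the share above 0 went from 64.5% to 44.7% and the median of all genes from -0.06 to -0.20. Without KO LPS replicate 3 the counts were 2625 and 1116. Without replicate 1 they were 626 and 440, and without replicate 2 they were 637 and 451. With replicate 1 as the single KO LPS library, 2462 genes were called above 0 (15.7%) and 981 below (6.26%), and with replicate 2 these were 2451 (15.6%) and 960 (6.13%). With replicate 3 alone, 434 genes were called above 0 (2.77%) and 657 below (4.19%). In these fits the lone library is assumed to vary like the other groups. The interaction held, with 1 sign, for each KO LPS library alone in 526 genes, 347 above 0 (2.22% of those tested) and 179 below (1.14%). With library size alone 233 above and 285 below held, and without WT LPS defactinib replicate 3 598 held above. By the way these 526 genes were chosen, the changes of the WT and KO LPS libraries did not overlap in any of them, and nothing is read from that; over all genes tested the WT changes lay above the KO changes in 23.6% and below them in 19%. These 526 genes made up 15.3% of the calls with replicate 1, 15.4% of those with replicate 2 and 48.2% of those with replicate 3. They were 80% of the genes called above 0 with replicate 3 and 27.2% of those called below. A further 1840 genes above and 595 below 0 were called with replicates 1 and 2 and not with replicate 3.

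**Figure D2:**
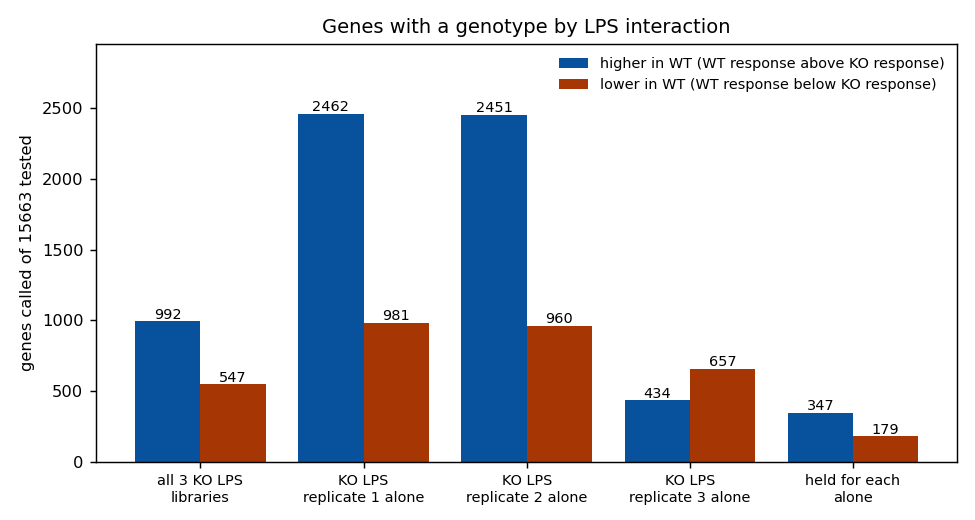
Number of genes called for the interaction (FDR below 0.05 from edgeR, absolute log2 difference above 1) with all 3 KO LPS libraries, with each alone, and held for each alone. The count above 0 falls from 2462 and 2451 with replicates 1 and 2 to 434 with replicate 3, and 347 above and 179 below 0 held for each.

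The 347 genes above 0 were, by their median, raised by LPS in WT cells. Their median log2 change under LPS was 2.23 in WT cells, and -0.29, -0.35 and 0.64 in KO cells by replicates 1, 2 and 3, where the medians over all tested genes were -0.04 or nearer to 0. Their median interaction was 2.58, 2.62 and 1.48 with replicates 1, 2 and 3 alone. Before LPS the median difference between the genotypes was -0.12. Secreted signals and their receptors, surface proteins of activated cells and nucleic acid sensing or antiviral proteins were among the named members. The 11 named here kept the greatest interaction in whichever of the 3 fits gave them the least, among members whose average log2 CPM reached 3.

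In 2 of these 11 genes the KO libraries stood together. Il12b (ENSMUSG00000004296, chr11:44400063-44414033) encodes the p40 chain shared by IL-12 and IL-23. It was at 2.86, 2.503 and 4.35 CPM in unstimulated WT libraries and rose to 2137, 2759 and 2227 CPM under LPS. In KO libraries it went from 5.02, 6.27 and 5.45 CPM to 610.0, 616 and 577 CPM. The WT LPS libraries all lay above the KO LPS libraries with the 3 KO LPS values close together. The interaction was 2.75, 2.74 and 2.81 with replicates 1, 2 and 3 alone, and 2.77 (standard error 0.50, adjusted p = 0.00219) with all 3 in edgeR. In bulk RNA a lower level can come from fewer cells that make the transcript or from less of it per cell, which cannot be told apart. Cd69 (ENSMUSG00000030156, chr6:129267325-129275436), a C-type lectin that appears early on activated leukocytes, was at 6.53, 6.61 and 5.22 CPM in unstimulated and 372, 309 and 230.1 CPM in LPS-treated WT cells. KO cells held 12.3, 15.6 and 12.3 CPM before and 97.5, 98.5 and 92.7 CPM after LPS. KO cells thus began above WT cells and ended below them, without overlap in either state, and the interaction was 2.77, 2.75 and 2.82 by replicate.

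The interleukins 15 and 27 separated the KO libraries further. Il15 (ENSMUSG00000031712, chr8:82331632-82403222) supports NK and memory T cells and is presented on the cell surface by the receptor chain encoded by Il15ra. Il15 was at 2.003, 2.71 and 2.68 CPM in unstimulated WT and 68.4, 79.5 and 48.9 CPM in WT LPS libraries. In KO cells it was at 2.49, 2.46 and 2.38 CPM and 4.05, 3.63 and 7.28 CPM, with replicate 3 the highest of the KO LPS libraries and each of them below each WT LPS library. The interaction was 3.7 (standard error 0.55, adjusted p = 0.000671 from edgeR), and 4.01, 4.17 and 3.14 by replicate. Il15ra followed the same order, from 3.09, 4.11 and 4.02 to 64.2, 71.3 and 46.3 CPM in WT and from 3.35, 4.08 and 3.03 to 3.03, 2.38 and 7.88 CPM in KO cells. Its interaction was 4.22, 4.56 and 2.82 by replicate. Il27 (ENSMUSG00000044701, chr7:126589010-126594941) encodes the p28 chain of IL-27. It went from 0.131, 0.203 and 0.206 CPM to 103, 129 and 81.9 CPM in WT cells. In KO cells it was at 0.234, 0.231 and 0.374 CPM before LPS and at 0.121, 0.106 and 15.6 CPM after it, so that replicate 3 alone stood above its unstimulated libraries. The interaction of Il27 was 10.33, 10.52 and 3.33 by replicate and was called with each alone, but with all 3 together the spread between them left it uncalled at 4.89 (adjusted p = 0.0989 from edgeR). It is 1 of 9 genes held for each library alone that the joint comparison did not call.

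Members of interferon-inducible families made up a further group. Trim30c, of the TRIM30 family, went from 3.69, 3.23 and 3.71 to 108, 133 and 104 CPM in WT cells. In KO cells it was at 2.66, 2.71 and 2.89 CPM and then at 0.582, 0.6096 and 14.4 CPM, below its unstimulated level in replicates 1 and 2 and above it in replicate 3. Slfn9, a Schlafen family gene, showed this division too, at 13.6, 14.8 and 12.7 CPM before and 328, 405 and 329.6 CPM after LPS in WT cells and 16.6, 23.2 and 17.6 CPM before and 5.52, 5.86 and 85.8 CPM after it in KO cells. Interactions were 7.26, 7.19 and 2.61 for Trim30c and 6.48, 6.4 and 2.51 for Slfn9 with replicates 1, 2 and 3. Mndal, of the IFI200 family of DNA-binding proteins, reached 557, 651 and 452 CPM in WT LPS and 62.4, 62.1 and 123 CPM in KO LPS libraries from 33.1, 33.1 and 36.9 CPM in WT and 34.97, 54.4 and 33.5 CPM in KO cells before LPS. Its interaction was 3.4, 3.41 and 2.41. In the last 3 of the 11 genes the states before LPS differed or the KO response was nearly flat. Fam208b, related to a subunit of the HUSH silencing complex, stayed at 21.7, 21.8 and 36.4 CPM in KO LPS against 28.5, 28.8 and 28.2 CPM in KO unstimulated libraries and went from 22.4, 23.01 and 22.2 to 123, 146 and 122 CPM in WT cells. Mtus1, which encodes a microtubule-associated protein, was already at 24.3, 19.9 and 24.5 CPM in unstimulated KO cells against 3.74, 3.399 and 4.41 CPM in WT, a WT minus KO difference of -2.57 (adjusted p = 1.59e-05 from edgeR). After LPS it was at 34.7, 28.8 and 24.4 CPM in WT and 8.77, 7.95 and 17.9 CPM in KO cells, with an interaction of 4.32, 4.46 and 3.26. C5ar1, the receptor for the complement peptide C5a, began at 54.6, 35.6 and 54.4 CPM in KO and 4.25, 4.18 and 2.25 CPM in WT cells. It ended at 32.95, 31.6 and 90.5 CPM and 46.8, 40.7 and 36.2 CPM, where the groups overlapped and KO LPS replicate 3 was the highest library. For C5ar1 the interaction of 4.08, 4.13 and 2.6 goes with a higher KO level before LPS. After LPS, KO replicates 1 and 2 lay below each WT library and replicate 3 above.

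**Figure D3:**
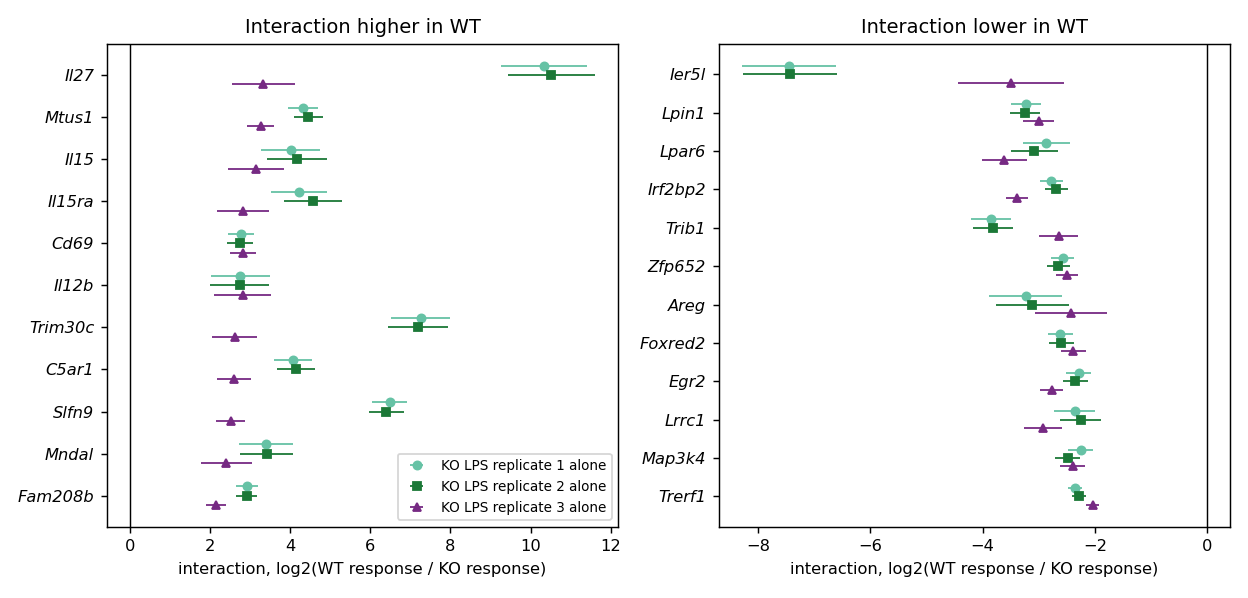
Interaction (log2 of WT response over KO response, with its standard error from edgeR) of the 11 named genes above and the 12 below 0, with each KO LPS library alone. The smallest value above 0 is 2.16 for Fam208b and the smallest below 0 in size is -2.04 for Trerf1, both with replicate 3, and the libraries lie furthest apart in Il27 above 0 and in Ier5l below 0.

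The 179 genes below 0 were, by their median, lowered by LPS in WT cells. Their median change was -2.0 in WT cells and -0.37, -0.34 and -0.37 in KO cells by replicates 1, 2 and 3. The median interaction was -1.57, -1.64 and -1.68 with each library alone, with the 3 KO LPS libraries closer together than in the genes above 0. Before LPS the median difference between genotypes was -0.09. Transcription factors, corepressors and signalling proteins stood among the 12 named members.

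Enzymes and nuclear factors that fell in WT cells gave the closest values. Lpin1 (ENSMUSG00000020593, chr12:16535669-16589770), a phosphatidate phosphatase of lipid synthesis that also acts with transcription factors, was at 42.4, 44.01 and 40.7 CPM in unstimulated WT and 2.76, 3.58 and 4.27 CPM in WT LPS libraries. KO cells held 26.1, 35.2 and 28.9 CPM before and 23.4, 23.7 and 19.8 CPM after LPS. Each KO LPS library was above each WT LPS library, and the interaction was -3.15 (standard error 0.25, adjusted p = 3.25e-06 from edgeR), with -3.23, -3.24 and -3.0 by replicate. Zfp652 (ENSMUSG00000075595, chr11:95712673-95835115), a zinc finger transcriptional repressor, fell from 63.8, 63.3 and 55.7 to 6.005, 8.31 and 6.76 CPM in WT cells and was at 59.3, 52.5 and 56.7 CPM before and 38.6, 40.6 and 36.1 CPM after LPS in KO cells. Trerf1, a transcriptional regulating factor, went from 121, 131 and 131 to 25.9, 23.6 and 24.5 CPM in WT, against 106, 112 and 112 CPM before and 108, 103 and 85.9 CPM after LPS in KO cells. In both genes the KO LPS libraries kept most of the level of the unstimulated cells, and the interactions were -2.58, -2.65 and -2.5 for Zfp652 and -2.35, -2.28 and -2.04 for Trerf1. Map3k4, a kinase above p38 and JNK, had interactions of -2.25, -2.48 and -2.4, and Foxred2, an oxidoreductase of the endoplasmic reticulum, of -2.62, -2.6 and -2.38. Foxred2 was lower in KO than in WT cells before LPS, at 9.44, 9.06 and 9.56 against 22.8, 22.9 and 20.5 CPM.

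Egr2 (ENSMUSG00000037868, chr10:67535475-67542188), an early growth response transcription factor of myeloid and T cells, was at 237, 239 and 270.4 CPM in unstimulated WT and 30.1, 20.9 and 30.8 CPM in WT LPS libraries. In KO cells it was at 191, 173 and 197 CPM and then 100.1, 104 and 138 CPM. The LPS groups did not overlap, and the interaction was -2.48 (standard error 0.22, adjusted p = 8.58e-06 from edgeR), or -2.29, -2.35 and -2.77 by replicate. Irf2bp2, a corepressor that binds IRF2, fell from 67.8, 67.5 and 75.5 to 4.94, 3.48 and 4.32 CPM in WT cells and was at 94.6, 80.6 and 106 CPM before and 38.9, 36.6 and 58.7 CPM after LPS in KO cells. Its interaction of -2.77, -2.69 and -3.39 was widest with replicate 3. Trib1, a pseudokinase that directs the breakdown of C/EBP-alpha, gave the reverse order with -3.85, -3.81 and -2.64. Its KO LPS level was 63.02, 61.2 and 26.8 CPM against 31.6, 39.8 and 35.6 CPM unstimulated, higher in replicates 1 and 2 and lower in replicate 3, while WT cells went from 76.7, 74.9 and 83.1 to 10.04, 8.98 and 9.63 CPM. Lpar6, a receptor for lysophosphatidic acid, was higher in KO than in WT cells before LPS, at 82.2, 69.5 and 75.4 against 28.7, 27.7 and 26.6 CPM, and was at 27.5, 31.9 and 45.7 against 1.74, 1.33 and 1.04 CPM after it. Lrrc1, a leucine-rich repeat protein, was lower in KO cells before LPS, at 11.8, 13.4 and 11.9 against 45.1, 46.7 and 47.95 CPM, and at 6.45, 5.99 and 9.41 against 4.103, 4.17 and 5.92 CPM after it. Interactions were -2.86, -3.08 and -3.62 for Lpar6 and -2.36, -2.25 and -2.92 for Lrrc1.

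Areg and Ier5l were the last of the 12. Areg encodes amphiregulin, a ligand of the EGF receptor, and was at 2.42, 2.47 and 3.98 CPM in unstimulated and 19.9, 11.6 and 21.1 CPM in LPS-treated WT cells. KO cells began at 0.171, 0.154 and 0.354 CPM and reached 12.6, 11.6 and 7.06 CPM, with an interaction of -3.23, -3.12 and -2.42. The KO response of Areg was thus greater from a lower start, and the groups overlapped after LPS. Ier5l, related to the immediate-early gene Ier5, fell from 5.05, 5.495 and 5.63 to 0.348, 0.358 and 0.381 CPM in WT cells. In KO cells it went from 3.32, 2.21 and 3.52 to 35.7, 35.2 and 2.27 CPM, and the interaction was -7.45, -7.43 and -3.5, with replicates 1 and 2 above the unstimulated KO libraries and replicate 3 among them. Of the 23 genes described in these paragraphs, 19 held for each library in the 22 alternatives in which that could be lost, which leave out the fits without a KO LPS library and the one without a fold threshold. Il12b, Mndal and Areg lost this in 4 alternatives each and Ier5l in 6, among them the fit with no filter on low counts for each of the 4, and the others were fits without 1 WT or KO library before LPS or 1 WT LPS library.

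Promoters of some members are shown because IRF proteins bind a known element, the ISRE, and other LPS-driven factors bind others. Of the 347 genes above 0, 265 had a RefSeq promoter window on GRCm38.p6, from 250 bases before the start of transcription to 50 after it, and of the 179 below 0, 131 had one. Letters searched on both strands were GAAANNGAA for the ISRE, GGAANNGAA for the EICE bound by PU.1 with an IRF, and TGANTCA for AP-1. The first 2 differ at 1 base and can overlap. The NF-kB consensus and the CArG box of serum response factor were searched in their usual degenerate forms. Each stretch runs 5′ to 3′ on the strand of its gene with the matches in capitals, on either strand, the ISRE for Cxcl10, Slfn9, Mndal and Il15ra, the NF-kB consensus for Cxcl10 and Irf1, AP-1 for Cxcl10 and the CArG box for Egr2.
Cxcl10, chr5:92348944-92349114, minus strand: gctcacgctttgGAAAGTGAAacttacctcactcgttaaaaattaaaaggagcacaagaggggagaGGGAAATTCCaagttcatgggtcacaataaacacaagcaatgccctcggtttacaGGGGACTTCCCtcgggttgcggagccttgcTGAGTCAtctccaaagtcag
Slfn9, chr11:82991845-82991905, minus strand: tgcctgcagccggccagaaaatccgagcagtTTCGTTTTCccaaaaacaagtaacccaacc
Mndal, chr1:173880197-173880237, minus strand: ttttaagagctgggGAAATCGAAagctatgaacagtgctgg
Il15ra, chr2:11705123-11705178, plus strand: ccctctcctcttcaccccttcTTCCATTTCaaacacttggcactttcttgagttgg
Irf1, chr11:53769969-53770013, plus strand: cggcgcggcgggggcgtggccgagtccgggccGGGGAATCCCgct
Egr2, chr10:67537484-67537513, plus strand: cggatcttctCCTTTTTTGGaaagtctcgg

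An ISRE match was found in 37 of 367 windows of the genes above 0 (10.1%) and in 12 of 181 of those below 0 (6.63%), against 7.57% of the 13542 windows of all tested genes. Among genes called above 0 with replicates 1 and 2 and not with replicate 3 the share was 10.2%. The EICE match stood in 6.81% and 6.08% of windows of the genes above and below 0 (7.59% of all windows), and 8 and 3 of these windows held both the ISRE and the EICE match. The NF-kB consensus was in 10.9% and 8.29% (10.5% of all), AP-1 in 6.81% and 4.42% (5.43%) and the CArG box in 2.72% and 2.76% (1.29%). The 5 CArG windows of the genes below 0 include 4 of Egr2, 3 of which overlap. A gene with several starts has several windows, a match is a description of letters and no site of binding, and no window says anything of distant elements.

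Gene groups were then read by lists. Most list members that held for each KO LPS library, Isg15 and Ifnb1 are named here outside the rule for named genes, after their values were seen. Of 29 inflammatory cytokine genes tested, 4 had an interaction above 0 and 1 below with all 3 KO LPS libraries. With replicates 1 and 2 alone these were 13 and 2 each, with replicate 3 alone 5 and 1, and 4 and 1 held for each: Il12b, Il15, Il27 and Tnfsf4 above 0 and Vegfa below. Over all genes 6.33% were called above and 3.49% below 0 with all 3 libraries, and 1 of 29 below is close to the latter. The 1 gene held below 0 is read as no result about the list. The median interaction of the list was 2.24, 2.16 and 0.65 by replicate. Tnfsf4 encodes the costimulatory ligand OX40L and was at 482, 396 and 481 CPM in WT LPS and 55.7, 56.4 and 148 CPM in KO LPS libraries, from 52.4, 51.5 and 56.01 CPM in WT and 43.6, 54.8 and 39.8 CPM in KO cells before LPS. Vegfa, an angiogenic factor, was at 4.78, 3.07 and 3.38 CPM in WT LPS and 21.9, 23.03 and 10.3 CPM in KO LPS libraries, from 11.8, 13.7 and 10.6 CPM in WT and 14.5, 12.5 and 15.02 CPM in KO cells before LPS. The interactions by replicate were 2.81, 2.79 and 1.38 for Tnfsf4 and -2.33, -2.4 and -1.25 for Vegfa.

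Several cytokines for which IRF5 is best known were not among the genes held for each library. Il6 was at 1095, 950.0 and 833 CPM in WT LPS and 28.2, 27.9 and 382 CPM in KO LPS libraries, with unstimulated levels of at most 0.712 CPM. Each KO LPS library lay below each WT LPS library, but the interaction was 7.0, 7.01 and 3.22 by replicate with an adjusted p of 0.00669, 0.00667 and 0.244 from edgeR, and 0.0822 with all 3. In a fit of only the 12 libraries compared, Il6 held for each KO LPS library, and 5 genes of the list held above 0 in place of 4. Il1a was at 3296, 2305 and 2618 CPM in WT LPS and 956, 953 and 1762 CPM in KO LPS libraries, and Il1b at 3712, 2890 and 3063 CPM in WT LPS and 563, 568 and 1824 CPM in KO LPS libraries. In both the KO LPS libraries lay below the WT LPS libraries, and the interaction was not called with any KO LPS library alone, at 1.55, 1.56 and 0.65 for Il1a and 2.01, 2.0 and 0.29 for Il1b. Tnf was at 2610, 2143 and 2264 CPM in WT LPS and 2490, 2494 and 1141 CPM in KO LPS libraries, so that replicates 1 and 2 stood within the WT range and replicate 3 under it. From 94.1, 94.4 and 133 CPM in unstimulated WT and 58.3, 55.9 and 59.4 CPM in unstimulated KO cells, the interaction of Tnf was -0.98, -0.98 and 0.13. With replicates 1 and 2 it had an adjusted p of 0.00928 and 0.00928 from edgeR but stayed within a log2 difference of 1, and it was not called with any of the 3. Il12a, the p35 chain of IL-12, reached 10.1, 8.54 and 5.69 CPM in WT and 0.509, 0.583 and 2.602 CPM in KO LPS libraries, and Il23a, the p19 chain of IL-23, 40.9, 28.8 and 25.7 CPM and 14.2, 14.4 and 38.8 CPM. Il10, the anti-inflammatory cytokine, was at most 0.417 CPM in any of the 12 libraries. None of Il12a, Il23a and Il10 was called with any KO LPS library alone.

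Of 21 chemokine genes tested, 4 were above 0 and none below with all 3 KO LPS libraries, 9 above and 1 below with replicates 1 and 2 alone, and Cxcl10 with replicate 3 alone. This 1 of 21 is close to the 2.77% of all genes above 0 with replicate 3 alone. With all 3 libraries the 4 chemokine genes above 0 fell to 2 with library size alone and to 2 with no filter on low counts. Cxcl10, which draws T and NK cells through CXCR3, rose from 2.19, 2.57 and 1.67 to 1818, 1643 and 1362 CPM in WT cells and was at 2.602, 2.29 and 2.06 CPM before and 180.1, 188 and 576 CPM after LPS in KO cells. The LPS groups did not overlap, and the interaction was 2.46 (standard error 0.53, adjusted p = 0.00648 from edgeR), or 3.27, 3.2 and 1.57 by replicate. Ccl3 and Ccl4, inflammatory chemokines, had interactions of 0.55, 0.53 and -0.72 for Ccl3 and 0.2, 0.23 and -0.45 for Ccl4, not called with any library alone. Both were lower in unstimulated KO cells, Ccl3 at 212, 198 and 205 against 641, 639 and 796 CPM and Ccl4 at 93.6, 69.7 and 82.1 against 225, 219.8 and 285 CPM in WT. For Ccl5 the interaction was 2.36, 2.39 and 1.08, and it was not called either, at 1571, 1528 and 1234 CPM in WT LPS and 151, 148 and 360.4 CPM in KO LPS libraries. In the fit of only the 12 libraries compared, Ccl5 held for each library with Cxcl10, Ccl1 and Cxcl9, so that 4 chemokine genes were called with replicate 3 alone and held.

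**Figure D4:**
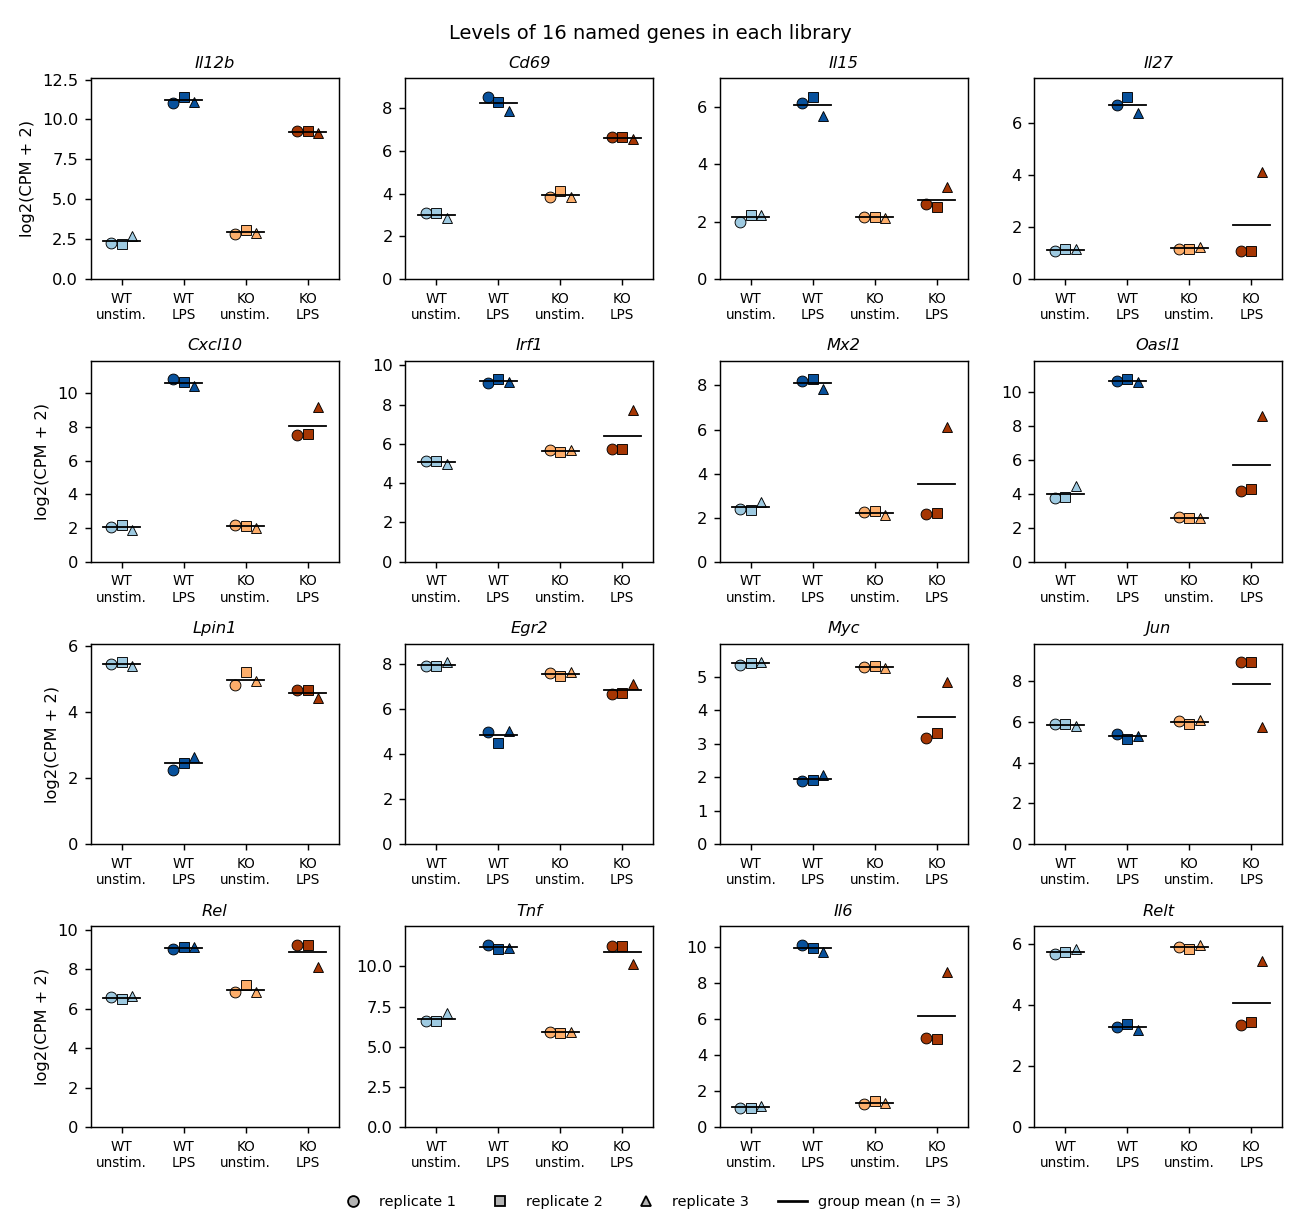
Level of 16 named genes in the 12 libraries compared, as log2 of CPM plus 2, by group, with 1 point per library and the group mean as a line. In Il12b and Cd69 the 3 KO LPS libraries lie together below WT LPS, in Il27, Mx2, Oasl1 and Il6 replicate 3 lies between replicates 1 and 2 and the WT LPS libraries, and in Lpin1 and Egr2 the 3 KO LPS libraries lie above WT LPS.

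Of the lists, the antiviral genes of the interferon axis gave the widest gap in median interaction between the KO LPS libraries. Of 67 antiviral interferon-stimulated genes tested, 24 had an interaction above 0 and none below with all 3 libraries, 51 with replicate 1 alone, 51 with replicate 2 alone and 2 with replicate 3 alone. With replicate 3 this is close to the 2.77% of all genes, and the 1 gene of 67 held for each library is no larger a share than the 2.22% of all genes. With all 3 libraries the 24 genes fell to 6 with no filter on low counts and to 20 with library size alone. The median interaction of the list was 4.11, 4.12 and 1.5 by replicate. Mx2, a dynamin-like antiviral GTPase, was that gene: it was at 296, 308 and 230.3 CPM in WT LPS and 2.54, 2.62 and 67.98 CPM in KO LPS libraries, from 3.28, 3.06 and 4.45 CPM in WT and 2.73, 3.001 and 2.32 CPM in KO cells before LPS, with an interaction of 6.35, 6.31 and 1.6. Mx2 was not held in 9 of those 22 alternatives, which were the fit with no filter on low counts and those without WT unstimulated, WT LPS or KO unstimulated replicates 1 or 2 or without KO LPS defactinib replicates 1 or 3. The calls of this list differed in fits that left out defactinib libraries, which changes the scaling, the low-count filter and the spread together. In a fit of only the 12 libraries compared, 52 of the 67 genes were called above 0 with replicate 3 alone and 51 held for each KO LPS library. Without WT LPS defactinib replicate 3 these counts were 53 and 52, and without KO LPS replicate 3 the count with the remaining libraries was 57. Over all genes these 2 fits gave 611 and 598 genes above 0 held for each library, in place of 347. Rsad2, the antiviral enzyme viperin, shows the levels behind this: 5711, 5549 and 4731 CPM in WT LPS and 14.6, 13.04 and 1134 CPM in KO LPS libraries, from 22.7, 21.1 and 22.5 CPM in WT and 9.86, 12.4 and 10.8 CPM in KO cells before LPS. Each KO LPS library lay below each WT LPS library, and replicate 3 was far above replicates 1 and 2. Isg15, a ubiquitin-like modifier, was at 1767, 1704 and 1662 CPM in WT LPS and 89.3, 84.8 and 404 CPM in KO LPS libraries.

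Of 23 interferon pathway genes (ligands, receptors, kinases and factors), 5 were above 0 with all 3 libraries, 11 above and 1 below with replicates 1 and 2 alone, and Irf1 with replicate 3 alone, 1 of 23 and again close to the 2.77% of all genes. Irf1, an interferon regulatory factor that is itself induced, went from 32.8, 32.8 and 29.8 to 543, 622 and 569.8 CPM in WT cells and was at 48.9, 45.6 and 49.2 CPM before and 51.4, 50.5 and 213 CPM after LPS in KO cells. In replicates 1 and 2 it stood close to its unstimulated level and in replicate 3 above it, and each KO LPS library was under each WT LPS library. The interaction was 3.05 (standard error 0.55, adjusted p = 0.00219 from edgeR), or 4.08, 4.11 and 2.01 by replicate. Ifnb1, interferon-beta, was at 81.9, 54.5 and 69.1 CPM in WT LPS and 32.8, 32.1 and 18.6 CPM in KO LPS libraries and at most 0.0169 CPM in unstimulated libraries of either genotype. Its interaction was not called with any library. In the fit of only the 12 libraries compared, 5 genes of this list were called with replicate 3 alone and held for each: Irf1, Irf7, Irf8, Stat2 and Usp18.

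Receptors, signalling genes and surface proteins followed. Of 27 TLR4 signalling genes, 5 were above 0 with all 3 libraries, 11 with replicates 1 and 2 alone, 1 above and 1 below with replicate 3 alone, and Peli1 held for each. With replicate 3 these shares are close to the 2.77% above and 4.19% below 0 of all genes, and the 1 held to the 2.22%. Peli1, a ubiquitin ligase of the TLR pathway, reached 417, 463 and 448 CPM in WT and 189.8, 193 and 153 CPM in KO cells under LPS, from 22.8, 22.4 and 22.2 CPM in WT and 24.01, 26.1 and 22.6 CPM in KO cells before LPS, with an interaction of 1.33, 1.3 and 1.62. Of 24 inducible costimulatory and receptor genes, 12 were above 0 with all 3 libraries, 15 with replicates 1 and 2 alone and 5 with replicate 3 alone, and 4 held for each: Cd69, Ccrl2, Fpr2 and Il10ra. Cd69 held throughout the alternatives, Fpr2 was lost in 13 of the 22, and 2 genes were left with library size alone or without WT unstimulated replicate 1, WT LPS replicate 2 or KO unstimulated replicate 1. Of the 22 alternatives Ccrl2 was lost in 3 and Il10ra in 2. With all 3 libraries 6.33% of all genes were above 0, and the 12 of 24 here fell to 7 with no filter on low counts and to 9 with library size alone. Ccrl2, an atypical chemerin receptor, had interactions of 1.14, 1.11 and 1.82, the formyl peptide receptor gene Fpr2 of 2.17, 2.13 and 1.48, and the IL-10 receptor gene Il10ra of 2.6, 2.57 and 1.02. Of 25 inflammatory effector enzyme genes, 3 were above 0 and 1 below with all 3 libraries, 8 and 1 with replicates 1 and 2 alone, and 1 above 0 with replicate 3 alone. The 1 of 25 above 0 with replicate 3 and the 1 below with all 3 are close to the 2.77% and 3.49% of all genes. Acod1, which makes itaconate, was at 5214, 4576 and 4753 CPM in WT LPS and 448, 456 and 2230 CPM in KO LPS libraries with an interaction of 3.59, 3.56 and 1.25, called with replicates 1 and 2. In the fit of only the 12 libraries compared more genes held over all tested as well. There, 1 or 2 held genes are read as no result about a list. With only the 12 libraries compared, 2 TLR4 signalling, 10 costimulatory and receptor and 6 effector enzyme genes held above 0, Acod1 among them, and 1 effector enzyme gene held below.

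NF-kB and immediate-early genes divided the libraries. Of 23 NF-kB subunit and feedback genes, 7 were above 0 and 1 below with all 3 libraries, 12 and 3 with replicates 1 and 2 alone and 5 above with replicate 3 alone, but none held for each library. With all 3 libraries the 1 of 23 below 0 is close to the 3.49% of all genes, and 6.33% of all genes were above. The 7 above fell to 3 with no filter on low counts and to 4 with library size alone. With only the 12 libraries compared, Bcl3, a nuclear IkB protein, held above 0. Rel, the subunit c-Rel, was at 515, 561 and 557 CPM in WT LPS and 601, 601 and 269.5 CPM in KO LPS libraries, so that replicate 3 stood below WT and replicates 1 and 2 above it. Tnfaip3, which encodes the feedback inhibitor A20, was at 924, 981 and 1014 CPM in WT LPS and 3879, 3926 and 391 CPM in KO LPS libraries. Its interaction of -2.28, -2.29 and 1.01 was called below 0 with replicates 1 and 2 and above 0 with replicate 3. Of 30 immediate-early genes, 1 was above and 11 below 0 with all 3 libraries, 2 and 15 with replicates 1 and 2 alone, and 2 and 4 with replicate 3 alone. With all 3 libraries 6.33% of all genes were above 0, so 1 of 30 above is no larger a share, while 3.49% were below. Nr4a3 held above 0 and Egr2 and Myc below. The orphan nuclear receptor gene Nr4a3 went from 176, 173 and 177 to 1362, 1465 and 1459 CPM in WT and was at 305, 415 and 302 CPM before and 245, 247 and 845 CPM after LPS in KO cells, with interactions of 3.5, 3.49 and 1.7. Myc, the growth factor-responsive transcription factor, fell from 39.1, 40.4 and 41.6 to 1.74, 1.82 and 2.19 CPM in WT cells and was at 37.8, 38.4 and 36.8 CPM before and 7.12, 8.06 and 27.02 CPM after LPS in KO cells. Each KO LPS library of Myc was above each WT LPS library, replicate 3 by the widest gap, with interactions of -2.0, -2.18 and -3.94.

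Of 26 macrophage factor and receptor genes, 4 were above and 2 below 0 with all 3 libraries, 5 and 2 with replicates 1 and 2 alone and 3 and 3 with replicate 3 alone, and Maf, Mertk and Tlr7 held above 0 and 1 gene below. Of the 22 alternatives Maf was lost in 4, those without WT unstimulated replicate 1, WT LPS replicate 1 or KO unstimulated replicates 1 or 3, and Mertk and Tlr7 in none. The transcription factor gene Maf was at 10.3, 6.93 and 5.23 CPM in WT LPS and 2.74, 2.68 and 12.8 CPM in KO LPS libraries, from 2.696, 3.47 and 3.896 CPM in WT and 15.8, 11.3 and 16.8 CPM in KO cells before LPS. In Maf the LPS groups overlapped and KO cells began above WT cells. Its interactions were 3.58, 3.62 and 1.33. Mertk, a receptor for the uptake of dying cells, and Tlr7, the endosomal sensor of single-stranded RNA, had interactions of 2.04, 2.05 and 1.31 and of 3.35, 3.46 and 1.65. Of 27 cell cycle genes, 1 was above and 1 below 0 with all 3 libraries, 6 and 1 with replicates 1 and 2 alone and 2 and 3 with replicate 3 alone. The spindle checkpoint kinase gene Bub1b held above 0 (2.47, 2.35 and 1.14) and E2f2, an E2F factor, below (-2.11, -1.96 and -2.98). Of 24 glycolysis and hypoxia genes, 2 were above and 1 below 0 with all 3 libraries, 4 and 1 with replicates 1 and 2 alone and 1 below with replicate 3 alone. Ddit4, an inhibitor of mTORC1, held below 0 (-3.97, -4.01 and -2.02). Over all genes 6.33% were called above and 3.49% below 0 with all 3 libraries. The glycolysis and hypoxia counts are close to these shares, and so are those with single libraries to the shares given above. The cell cycle counts with all 3 libraries are close to or under them. Over all genes 2.22% held above and 1.14% below, so that 1 gene held in a list of this size is read as no result about the list. None of 26 cholesterol synthesis and LXR genes, 17 heat shock chaperone genes, 36 cytosolic ribosomal protein genes and 15 mitochondrially encoded genes held for each library. With all 3 libraries the calls in these 4 lists were 1, 1, 0 and 0, all below 0. The median change of the ribosomal protein genes was 0.20 in WT cells and 0.92, 0.92 and 0.20 in KO cells by replicate. Of 9 nuclear noncoding RNA genes tested, 4 were below 0 with all 3 libraries and none with replicate 3 alone. Of the markers, Mertk alone held in the fit of all 18 libraries, among 10 macrophage, 10 dendritic cell, 10 neutrophil, 7 mast cell and basophil, and 4 T, B and NK cell genes tested. With only the 12 libraries compared Ccr7 and Hdc held too, and with DESeq2 Cd14. Mertk as the only held marker is close to the share held over all genes. That share was larger in both other fits, and nothing is read about the markers from these genes.

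**Figure D5:**
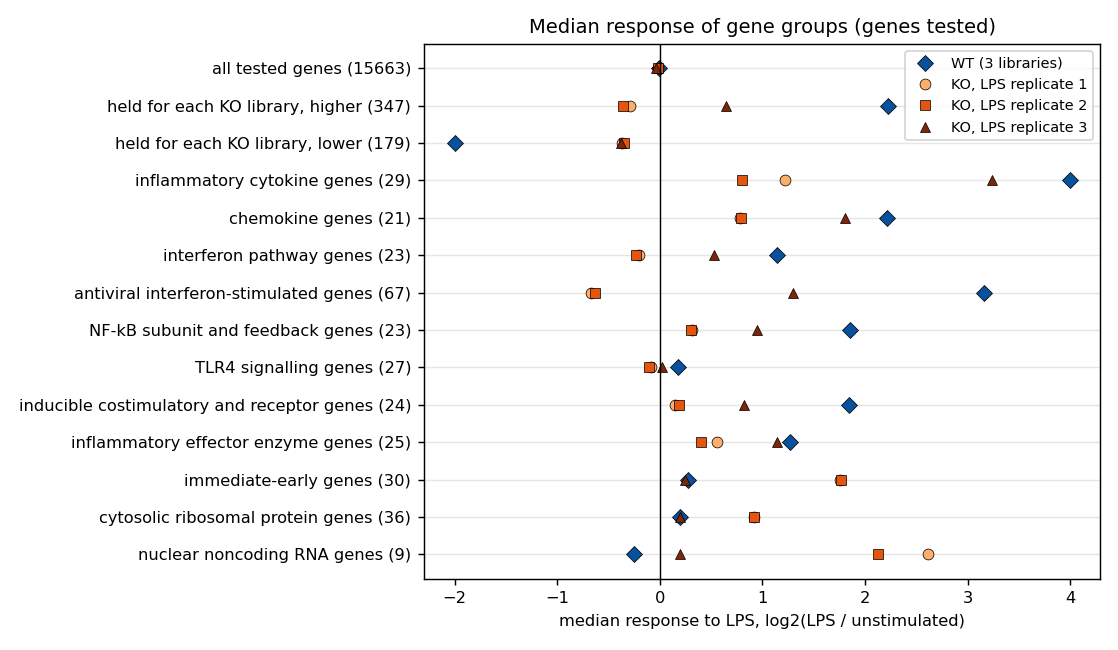
Median log2 change under LPS of gene groups in WT cells (3 libraries) and in KO cells with each LPS library alone, with the number of genes tested in brackets. For the antiviral genes WT lies at 3.16 and the KO libraries at -0.67, -0.63 and 1.30, and for the 179 genes below 0 the 3 KO libraries lie at -0.37, -0.34 and -0.37 against -2.0 in WT.

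Genes that depended on which KO LPS library was read were named by the same kind of rule. Called with replicates 1 and 2, and within 0.5 of 0 with replicate 3, were 5 named genes above 0: Oasl1, an OAS-like inhibitor of Irf7 translation, Tlr9, the endosomal DNA sensor, the exonuclease gene Exo5, the exocyst subunit gene Exoc8 and the receptor gene Gprc5c. Tlr9 was at 19.1, 26.8 and 23.1 CPM in WT LPS and 0.799, 1.11 and 20.4 CPM in KO LPS libraries, from 10.9, 10.5 and 9.23 CPM in WT and 8.65, 13.9 and 11.1 CPM in KO cells before LPS, and Exoc8 at 22.2, 21.8 and 23.4 CPM in WT LPS and 1.16, 1.19 and 30.1 CPM in KO LPS libraries, from 33.7, 33.9 and 29.9 CPM in WT and 33.5, 29.9 and 34.3 CPM in KO cells before LPS. In Tlr9, Exo5, Exoc8 and Gprc5c the level in replicates 1 and 2 lay well under that of unstimulated KO cells, while the WT change was 0.03 in Exo5 and -0.53 in Exoc8. Below 0 were Rn7sk, a nuclear RNA that holds P-TEFb inactive, Jun, Rasgef1b, Zfp36 and Nr4a1. Jun was at 40.3, 33.3 and 38.1 CPM in WT LPS and 481, 477 and 51.02 CPM in KO LPS libraries, and Zfp36, which encodes the mRNA-destabilising protein tristetraprolin, at 79.6, 68.7 and 67.9 CPM in WT LPS and 604, 599 and 80.2 CPM in KO LPS libraries. Replicate 3 was near the WT LPS level in both. Over the 1840 genes above 0 the median KO change was -1.29, -1.29 and 0.13 by replicate and the WT change 0.61. Over the 595 below 0 it was 1.96, 2.00 and -0.09, against -0.47 in WT. The share of nuclear noncoding RNA given above moved with this division, and its part in it was not tested.

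Called with replicate 3 and neither replicate 1 nor 2 were 68 genes above 0 and 376 below. Named above 0 were Gadd45b, a stress-induced regulator, Rel, Tiparp, Tmem39a and the polo-like kinase gene Plk2. Gadd45b was at 387, 428 and 395 CPM in WT LPS and 473, 475 and 147 CPM in KO LPS libraries, with interactions of 0.16, 0.15 and 1.83. Named below 0 were Tifab, P2ry6, a receptor for UDP, Relt, of the TNF receptor family, Rab3il1 and Tbc1d2. Relt fell from 49.8, 51.3 and 55.2 to 7.81, 8.34 and 7.19 CPM in WT cells and was at 57.8, 55.2 and 61.4 CPM before and 8.24, 8.93 and 41.4 CPM after LPS in KO cells, where replicates 1 and 2 matched the WT level and replicate 3 lay nearer the unstimulated one. The median WT change of the 376 genes was -1.83, and the KO change was -1.61, -1.62 and -0.41 by replicate. Signs were opposite between replicate 3 and replicate 1 or 2 in 56 genes, of which 52 were below 0 with replicate 3.

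The 6 defactinib libraries entered the choice of these genes through the shared scaling, low-count filter and spread. Under LPS with defactinib, WT was called above KO in 1323 of all tested genes (8.45%) and below it in 1389 (8.87%). Of the 347 genes above 0, 29 were called above and 72 below there, with a median difference of -0.15. Of the 179 genes below 0, 16 were called above and 39 below, with a median of -0.17, where the median over all tested genes was 0.02. Il12b shows the reverse order of the LPS groups without defactinib, at 64.9, 15.8 and 28.7 CPM in WT and 1079, 1017 and 1077 CPM in KO cells (difference -4.86, adjusted p = 2.4e-07 from edgeR). Il15 was at 4.39, 4.93 and 14.8 CPM in WT and 3.45, 3.47 and 2.63 CPM in KO cells with defactinib, and Lpin1 at 15.2, 14.1 and 9.53 CPM in WT and 30.2, 31.1 and 31.9 CPM in KO cells.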

How the data were processed

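Bulk RNA-seq of mouse BMDMs was analysed from the gene counts deposited for 18 libraries. Per the labels and their processing notes the authors aligned reads to mm10 with STAR and counted uniquely mapped read pairs over exons with featureCounts 1.6.3, set to reverse-stranded reads, giving raw counts without normalization. Counts were fitted with edgeR 4.0.16 (R 4.3.3, quasi-likelihood test, TMM scaling, its default filter on low counts) over 6 groups, with the Benjamini-Hochberg adjustment over all 15663 genes tested of 50600 in the table. A gene was called at FDR below 0.05 with an absolute log2 difference above 1. Each KO LPS library was also fitted alone as its group. Levels are CPM on TMM library sizes, and depth was 39282181 to 55262814 counts in the 12 libraries compared, so low counts limit the precision of genes near 0. Named genes were the 12 in each direction with the largest smallest interaction over the 3 single-library fits, 5 in each direction for genes called with replicates 1 and 2 only or replicate 3 only, the highest 3 of each list, Irf5 and the study's cytokine genes. Some genes that met these rules are not reported here. Members, lists and tests were chosen with earlier results of these data known. Alternatives were other scaling, filters, DESeq2 1.42.0, a replicate block, the 12 libraries alone, no fold threshold and leaving out each library. The fits were tested on simulated counts in which the KO LPS libraries shared 1 mean. That is no check of KO LPS libraries that differ as these do. Promoter sequences came from RefSeq tables on GRCm38.p6.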

Additional observations from a re-analysis of the deposited data

Results flagged for a closer look

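The interaction is itself a test of whether the LPS response differed between genotypes, and the results named by it are collected here with their log2 value over all 3 KO LPS libraries from edgeR. No test for a single library that stands apart was run on groups of 3 libraries. The joint comparison called 992 genes above and 547 below 0, and 347 and 179 held for each KO LPS library.

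Among secreted signals and receptors, values above 0 were 2.77 for Il12b, 3.70 for Il15, 3.66 for Il15ra, 2.46 for Cxcl10, 2.17 for Tnfsf4, 3.43 for C5ar1, 2.79 for Cd69, 1.32 for Ccrl2, 1.90 for Fpr2, 1.87 for Il10ra, 1.47 for Cd14, 1.08 for Cd274, 1.76 for Mertk and 2.57 for Tlr7. Values below 0 in this group were -2.08 for Vegfa, -2.96 for Areg and -3.22 for Lpar6.

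Among transcription factors and early genes, 3.05 for Irf1, 2.64 for Nr4a3 and 2.42 for Maf lay above 0. Below 0 were -2.48 for Egr2, -2.98 for Myc, -3.02 for Jun, -2.15 for Nr4a1, -2.42 for E2f2, -2.98 for Irf2bp2, -2.57 for Zfp652, -2.23 for Trerf1, -2.54 for Zfp36 and -6.90 for Ier5l. Jun, Nr4a1, Zfp36 and Rasgef1b (-2.66) were called with KO LPS replicates 1 and 2 and not with replicate 3, as was Cd14. Cd274 was called with replicate 3 alone of the 3.

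Signalling and other genes above 0 were Peli1 at 1.42, Trim30c at 4.08, Slfn9 at 3.93, Mndal at 3.00, Mtus1 at 3.91, Fam208b at 2.62 and Bub1b at 1.86. Those below 0 were Trib1 at -3.53, Map3k4 at -2.37, Lpin1 at -3.15, Lrrc1 at -2.54, Foxred2 at -2.53, Ddit4 at -3.57 and Scd2 at -1.24, the last not called with KO LPS replicate 1. Of nuclear and ribosomal RNA genes, Gm26917 was at -7.74, Rn7sk at -6.60 and Gm42418 at -3.10, and none of these 3 was called with KO LPS replicate 3 alone.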

How the results depend on the processing

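No called named interaction changed sign under the alternatives run, while some that were not called did, Ccl3 and Ccl4 among them. The balance of calls changed: with library size alone as scaling, 653 genes were called above and 807 below 0, against 992 and 547, and 233 above and 285 below held for each KO LPS library, against 347 and 179. Fitting only the 12 libraries compared gave 611 genes above 0 held for each. Without the fold threshold the interaction was called for 1530 genes above and 1151 below 0, for 6155, 6135 and 2060 genes with KO LPS replicates 1, 2 and 3 alone, and 701 above and 477 below held for each. Leaving out 1 library at a time gave 626 to 2625 genes above 0 and 399 to 1116 below with all remaining libraries, the highest of both without KO LPS replicate 3 and the lowest above 0 without replicate 1. Genes held for each ranged from 275 to 598 above 0, the latter without WT LPS defactinib replicate 3, and from 142 to 204 below. With 1 KO LPS library alone the calls ranged from 3246 to 3706 for replicate 1, 3211 to 3665 for replicate 2 and 910.0 to 1478 for replicate 3. The cause of these shifts was not tested. Of the 526 genes held for each, 412 to 526 were kept in the 22 alternatives in which a gene could be lost, which leave out the fits without a KO LPS library and the one without a fold threshold. A replicate block gave 1140 genes above and 514 below 0, with 358 and 174 held for each. Whether same-numbered libraries share an animal or a batch is not given. Over 45 pairs of same-numbered libraries the median correlation of deviations was 0.00455 and 4 were over 0.1. This cannot exclude a pairing, as KO LPS replicate 3 dominates the deviations of its group. No marker of T, B or NK cells passed a filter at 5 CPM. Depth limits genes at a few counts, such as Il10.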
